A study of Rattus norvegicus with 4 samples.

Results

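The genes described here encode the machinery that stores neurotransmitter in synaptic vesicles and releases it at the presynaptic membrane. The set was a list of 38 gene symbols matched to the symbols in the deposited tables, of which 37 had a row among the 18755 genes listed. Cplx1 had no row under its symbol, so no expression value is given for it, though its promoter is among those tallied below. Of the 37, 36 had an FPKM (reads scaled to the length of the gene model and to the library's counted reads) of at least 1 in at least 1 library, the minimum used for every comparison. The exception was Sv2c, with 0 reads on SFMA (which allows up to 0.171 CPM, reads scaled to the library's counted reads, from 3 counts) and 5, 7 and 6 reads on the N-SFMA, L-SFMA and NL-SFMA libraries. Pclo, Syt5 and Vamp1 passed the minimum through the libraries in which they were high, so their differences are partly a product of that filter. All cells were primary cells of the cerebral cortex of Sprague Dawley (SD) rat embryos at embryonic day 16, grown for 24 h in Neurobasal medium with B27 and PS on 1 of 4 hydrogels. They are named SFMA, which carries no further letter, N-SFMA, then L-SFMA, and last NL-SFMA. L-SFMA and NL-SFMA are also spelled L@SFMA and NL@SFMA in the labels, and what N and L stand for is not given there. Each hydrogel had 5 parallel wells with 100000 cells per well and 1 poly(A) RNA library. The stated purpose concerns cues of adhesion between cells and the growth of neurons, and the comparisons below ask how the release machinery genes differed between hydrogels. With 1 library per hydrogel no difference could be set against a spread between replicates, and no p-value is given.

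Synaptic vesicles are filled with transmitter by membrane transporters, held in a cluster by synapsins, and brought to the release site by Rab3 and the scaffolds of the active zone. Fusion is driven by the SNARE proteins syntaxin, SNAP25 and VAMP2 (synaptobrevin), is timed by calcium binding to synaptotagmin, and is followed by separation of the SNAREs by NSF and its SNAP adaptors. In embryonic cortex many of these genes are transcribed in young neurons before synapses are numerous, and several also serve the secretory traffic of growing axons.

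Promoters of 3 pairs of related members that differed in opposite directions on NL-SFMA are shown, as the regions from 250 bases before to 50 bases after the annotated start in RefSeq (build GRCr8), 5′ to 3′ on the gene's strand. Rab3a and Rab3c encode vesicle GTPases, Slc17a7 and Slc17a6 vesicular glutamate transporters, and Napa and Napb the SNAP adaptors of NSF. Capitals mark every match, on either strand, to 4 motifs. The GC box was searched as GGGCGG. The TATA box was searched as TATAAA. The letters for the cAMP response element were TGACGTCA. The CCAAT box was searched by the letters of its name.
Rab3a, chr16:18722224-18722523, minus strand: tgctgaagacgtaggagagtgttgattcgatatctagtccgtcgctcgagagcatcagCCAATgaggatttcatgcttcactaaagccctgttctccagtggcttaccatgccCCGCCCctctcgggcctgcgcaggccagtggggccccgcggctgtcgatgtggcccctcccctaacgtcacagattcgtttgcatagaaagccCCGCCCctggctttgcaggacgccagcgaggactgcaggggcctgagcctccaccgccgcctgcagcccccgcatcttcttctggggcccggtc
Rab3c, chr2:43575894-43576193, minus strand: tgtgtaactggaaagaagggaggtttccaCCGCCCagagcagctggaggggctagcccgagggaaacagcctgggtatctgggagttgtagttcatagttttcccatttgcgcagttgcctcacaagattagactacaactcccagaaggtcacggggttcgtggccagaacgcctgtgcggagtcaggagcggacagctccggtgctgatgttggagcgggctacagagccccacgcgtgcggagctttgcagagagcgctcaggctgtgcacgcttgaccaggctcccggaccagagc
Slc17a7, chr1:104785955-104786254, plus strand: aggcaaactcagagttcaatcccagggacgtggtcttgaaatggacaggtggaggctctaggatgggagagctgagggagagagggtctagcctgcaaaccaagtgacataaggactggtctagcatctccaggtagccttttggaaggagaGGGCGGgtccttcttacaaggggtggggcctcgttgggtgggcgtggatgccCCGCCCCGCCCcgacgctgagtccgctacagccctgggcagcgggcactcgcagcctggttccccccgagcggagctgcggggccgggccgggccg
Slc17a6, chr1:110348197-110348496, plus strand: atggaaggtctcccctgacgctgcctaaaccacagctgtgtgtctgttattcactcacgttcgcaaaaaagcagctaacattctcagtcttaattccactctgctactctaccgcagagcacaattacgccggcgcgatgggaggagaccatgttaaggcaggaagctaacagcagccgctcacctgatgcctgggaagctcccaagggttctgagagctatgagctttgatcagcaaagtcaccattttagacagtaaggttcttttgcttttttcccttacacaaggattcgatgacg
Napa, chr1:85915185-85915484, plus strand: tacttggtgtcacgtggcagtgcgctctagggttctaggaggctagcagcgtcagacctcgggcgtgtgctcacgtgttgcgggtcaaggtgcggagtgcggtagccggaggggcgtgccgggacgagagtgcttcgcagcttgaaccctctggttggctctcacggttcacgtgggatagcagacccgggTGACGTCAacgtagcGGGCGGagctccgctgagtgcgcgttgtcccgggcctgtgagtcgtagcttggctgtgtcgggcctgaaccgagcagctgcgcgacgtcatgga
Napb, chr3:156632369-156632668, minus strand: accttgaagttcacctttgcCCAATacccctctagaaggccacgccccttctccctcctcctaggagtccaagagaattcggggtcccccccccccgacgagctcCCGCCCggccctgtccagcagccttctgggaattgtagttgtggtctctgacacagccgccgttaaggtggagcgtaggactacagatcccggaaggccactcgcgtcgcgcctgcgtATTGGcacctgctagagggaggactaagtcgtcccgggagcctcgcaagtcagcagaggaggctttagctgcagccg
The Slc17a7 window held 3 GC box matches, of which 2 overlap, and the Slc17a6 window held none of the 4 motifs. Rab3a had 2 GC box matches and 1 CCAAT match, Rab3c 1 GC box match, Napa 1 GC box match and 1 cAMP response element, and Napb 1 GC box match and 2 CCAAT matches. Guanine and cytosine made up 62.7% of the Rab3a window and 59.7% of that of Rab3c, 64.7% of Slc17a7 and 49.0% of Slc17a6, and 64.7% of Napa and 62.0% of Napb. Of the 38 members 32 had an entry by symbol. A GC box match was present in 27 of these (84.4%), against 33.1% of all 33469 windows and 64.5% of the 9230 windows of tested genes. The median share of guanine and cytosine was 64.7% in member windows and 61.7% in those of tested genes. Its part in the motif shares was not tested. No member window held TATAAA, which was in 14.2% of all windows and 6.2% of those of tested genes. A cAMP response element was found in 3 members (Napa, Vamp1 and Syn1), or 9.38%, against 1.83% of all windows and 3.47% of those of tested genes. CCAAT was in 10 members (31.2%), against 37.5% of all windows and 38.3% of those of tested genes. A match is a run of letters and does not show that a factor binds there.

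Summed read counts ranged from 14172205 on NL-SFMA to 17553098 on SFMA, and the members held 0.276% of the reads on SFMA and 0.334% to 0.336% on the other 3 hydrogels. Mitochondrially encoded genes held 2.68%, 2.23%, 2.33% and 5.89% of the reads in the order in which all values below are given (SFMA, N-SFMA, L-SFMA, NL-SFMA). The read-weighted median gene model length was 2851, 3278, 3437 and 3626 bases. All 14 pan-neuronal markers listed passed the minimum, with summed levels of 4400, 5341, 4400 and 3809 FPKM, and their median log2 differences from SFMA were 0.45, 0.39 and 0.47 for the other hydrogels in turn. Tubb3 (1882, 2602, 1957 and 1659 FPKM) and Uchl1 (1484, 1346, 1157 and 646 FPKM) together made up most of these sums. The 10 radial glia markers summed to 1564, 706, 698 and 784 FPKM, most of it Vim (1088, 535, 486 and 633 FPKM), and had medians of -0.66, -0.48 and -0.82. None of the 5 endothelial markers found and 3 of the 7 microglia markers found passed the minimum, and the sums of the microglia list were 21.7, 8.02, 15.6 and 6.50 FPKM. The 9 interneuron markers summed to 370.5, 271.8, 243.4 and 135.1 FPKM, the 6 astrocyte markers to 106, 63.3, 70.3 and 42.5 FPKM, and the 6 erythroid markers to 547, 161, 90.8 and 69.7 FPKM. Within the interneuron sums Sst alone was at 204, 110, 82.3 and 34.5 FPKM, and the list's median log2 differences were -0.05, -0.02 and -0.73. Aldoc made up most of the astrocyte sums (96.3, 58.1, 62.5 and 37.6 FPKM). The medians of the 5 astrocyte markers tested were -0.68, -0.15 and -0.73. The part of these shifts in the results on release genes was not tested. In bulk RNA, fewer cells of a type and less RNA per cell cannot be told apart.

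Among the vesicle membrane proteins, synaptophysin stood apart on NL-SFMA. Syp, which encodes this abundant vesicle protein, was at 103, 112, 100.2 and 42.7 FPKM, so that 3 libraries lay close together and NL-SFMA was low. Its CPM on NL-SFMA was 0.416 times that on SFMA (95% counting interval 0.392 to 0.441). Its relatives did not share this: the broadly expressed Sypl1 was at 11.6, 8.30, 9.96 and 10.5 FPKM, with a CPM ratio of 0.904 (0.791 to 1.03) on NL-SFMA, and Synpr, which encodes synaptoporin, was near the minimum at 1.27, 1.76, 1.17 and 1.24 FPKM. The vesicle glycoprotein gene Sv2a was at 24.8, 36.6, 37.8 and 35.1 FPKM, lowest on SFMA, with a CPM ratio of 1.41 (1.32 to 1.51) on NL-SFMA. Sv2b was at 3.81, 4.32, 4.53 and 6.02 FPKM, highest on NL-SFMA at a ratio of 1.58 (1.37 to 1.82). The glutamate transporters parted: Slc17a6 was at 3.13, 5.05, 5.94 and 7.04 FPKM, 2.25 times its SFMA level on NL-SFMA (1.90 to 2.67), while Slc17a7 was at 23.7, 27.3, 28.7 and 18.5 FPKM, at 0.781 times (0.713 to 0.855). Slc17a7 was thus highest on L-SFMA and lowest on NL-SFMA, and exceeded Slc17a6 per length in every library.

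**Figure D1:**
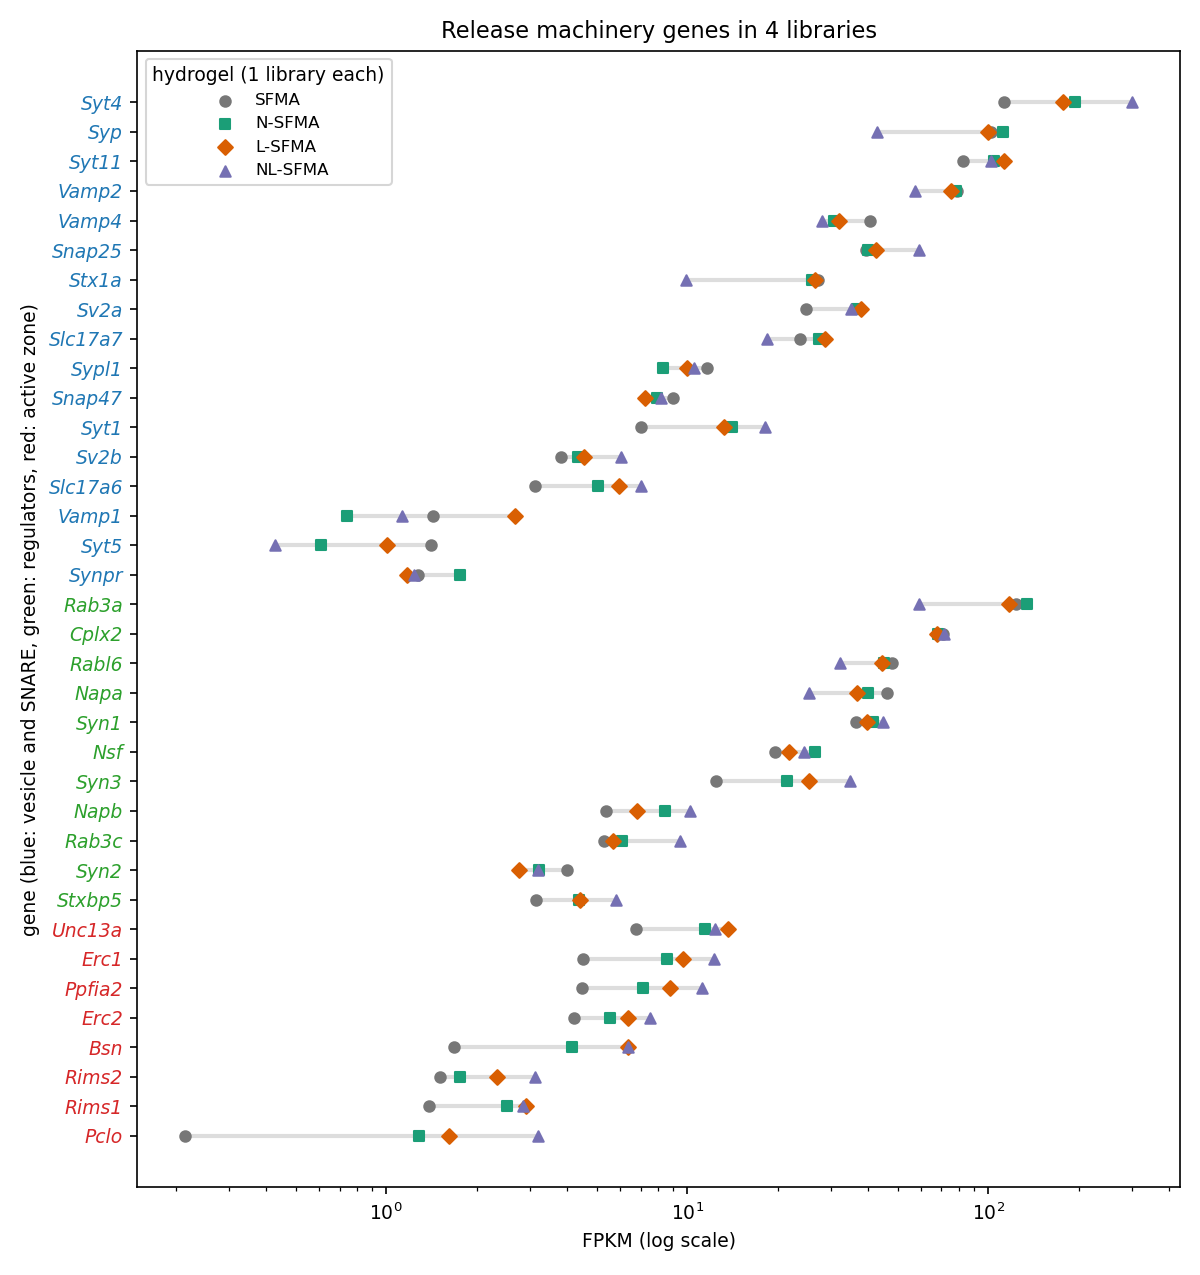
FPKM of the 36 tested members (log axis) in the library of each hydrogel, with 1 library per point and names coloured by class. Active zone genes are lowest on SFMA in every row, while NL-SFMA lies apart on the low side for Syp (42.7), Stx1a (9.93) and Rab3a (58.7).

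Synaptotagmins held the largest upward differences outside the active zone and the synapsins. Syt4, whose protein sits on vesicles of growing axons and dendrites, was the second most abundant member on SFMA after Rab3a, and the most abundant on NL-SFMA. It was at 113, 194, 177 and 301 FPKM, and its CPM ratios to SFMA were 1.73 (1.66 to 1.80), 1.58 (1.51 to 1.64) and 2.68 (2.58 to 2.78). The main calcium sensor of fast release, Syt1, was at 7.03, 14.0, 13.3 and 18.1 FPKM, lowest on SFMA. Both have short gene models (1896 bases for Syt1 and 2011 for Syt4), a length range (under 2500 bases) in which the median over all genes tested was -0.63 on NL-SFMA. Syt11, a close relative of Syt4, was at 82.5, 104, 113 and 102 FPKM, with a ratio of 1.24 (1.19 to 1.28) on NL-SFMA. Syt5 was rare, at 1.41, 0.605, 1.01 and 0.426 FPKM, from 45, 17, 30 and 11 reads.

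The core SNARE genes did not move together. Snap25, which encodes a SNARE of the plasma membrane, was at 39.4, 39.9, 42.5 and 58.8 FPKM, and its CPM on NL-SFMA was 1.49 times that on SFMA (1.39 to 1.60). Stx1a, the syntaxin of the same complex, was at 27.3, 26.1, 26.6 and 9.93 FPKM, a ratio of 0.363 (0.322 to 0.410) and the lowest of all members' log2 differences (-1.37). The vesicle SNARE gene Vamp2 was at 78.8, 78.2, 75.1 and 57.1 FPKM, lowest on NL-SFMA with a log2 difference of -0.46. In each of these 3 genes SFMA, N-SFMA and L-SFMA lay close together and the NL-SFMA library stood apart. Vamp1, a second vesicle SNARE, was low at 1.44, 0.743, 2.69 and 1.13 FPKM, from 77, 35, 134 and 49 reads. Vamp4, a SNARE of the Golgi and endosomes with the shortest gene model of the set (668 bases), was at 40.6, 30.9, 32.0 and 28.1 FPKM. The broadly expressed Snap47 was at 9.01, 7.94, 7.25 and 8.19 FPKM.

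Genes that control the vesicle pool and the SNARE cycle also differed within families. Of the synapsins, which hold vesicles in reserve, Syn3 was at 12.4, 21.4, 25.4 and 34.8 FPKM, a CPM ratio of 2.79 (2.65 to 2.95) on NL-SFMA. Syn1 was at 36.3, 41.5, 39.7 and 44.6 FPKM, a ratio of 1.23 (1.16 to 1.31), and Syn2 was at 4.00, 3.23, 2.75 and 3.20 FPKM, highest on SFMA. Syn3 also has the longest gene model outside the active zone (8600 bases). Rab3a, the main vesicle GTPase and the most abundant member on SFMA, was at 124, 134, 117 and 58.7 FPKM, a ratio of 0.473 (0.446 to 0.502) on NL-SFMA. Its relative Rab3c was at 5.30, 6.06, 5.69 and 9.49 FPKM, a ratio of 1.79 (1.49 to 2.15). In both Rab3 genes NL-SFMA was the library that lay apart, on opposite sides. Rabl6, a Rab-like gene outside the Rab3 subfamily, was at 48.1, 45.1, 44.5 and 32.2 FPKM. Stxbp5 encodes tomosyn, which inhibits SNARE assembly, and was at 3.15, 4.39, 4.41 and 5.82 FPKM, a ratio of 1.84 (1.55 to 2.19). Cplx2, which encodes a complexin that binds assembled SNAREs, hardly varied, at 70.7, 68.2, 67.8 and 71.2 FPKM and a ratio of 1.01 (0.948 to 1.07). Nsf, the ATPase that separates used SNAREs, was at 19.6, 26.5, 21.8 and 24.4 FPKM. Its adaptor gene Napa was at 46.2, 40.0, 36.6 and 25.4 FPKM, a ratio of 0.549 (0.515 to 0.586), and the neuronal adaptor gene Napb at 5.40, 8.47, 6.83 and 10.3 FPKM, a ratio of 1.90 (1.65 to 2.19).

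Active zone genes were lowest on SFMA without exception among the 8. Bsn, which encodes the scaffold bassoon, was at 1.68, 4.16, 6.35 and 6.34 FPKM, CPM ratios to SFMA of 2.48 (2.19 to 2.81), 3.78 (3.36 to 4.26) and 3.78 (3.35 to 4.26). Pclo, which encodes the related scaffold piccolo and has the longest gene model of the set (16206 bases), was at 0.214, 1.29, 1.62 and 3.20 FPKM, from 61, 322, 429 and 736 reads. Its log2 differences on the FPKM + 1 scale (0.91, 1.11 and 1.79) understate this, since the SFMA level is far below 1. Rims1, whose protein links Rab3 and calcium channels to the release site, was at 1.39, 2.52, 2.91 and 2.86 FPKM, and Rims2 at 1.51, 1.75, 2.34 and 3.12 FPKM. The vesicle priming gene Unc13a was at 6.78, 11.5, 13.7 and 12.4 FPKM, highest on L-SFMA. The scaffold gene Erc1, which is broadly expressed, was at 4.51, 8.60, 9.67 and 12.3 FPKM. Its neuronal relative Erc2 was at 4.20, 5.55, 6.38 and 7.52 FPKM, a ratio of 1.79 (1.52 to 2.10) on NL-SFMA. Ppfia2, which encodes the scaffold liprin-alpha 2, was at 4.48, 7.15, 8.76 and 11.2 FPKM. Summed over their members, the active zone genes were at 24.8, 42.5, 51.7 and 58.9 FPKM, the 18 vesicle and SNARE genes at 571, 693, 679 and 706 FPKM (without Syt4 458, 499, 502 and 405 FPKM, lowest on NL-SFMA), and the remaining 11 regulators at 375.3, 399.2, 373.0 and 320.0 FPKM.

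**Figure D2:**
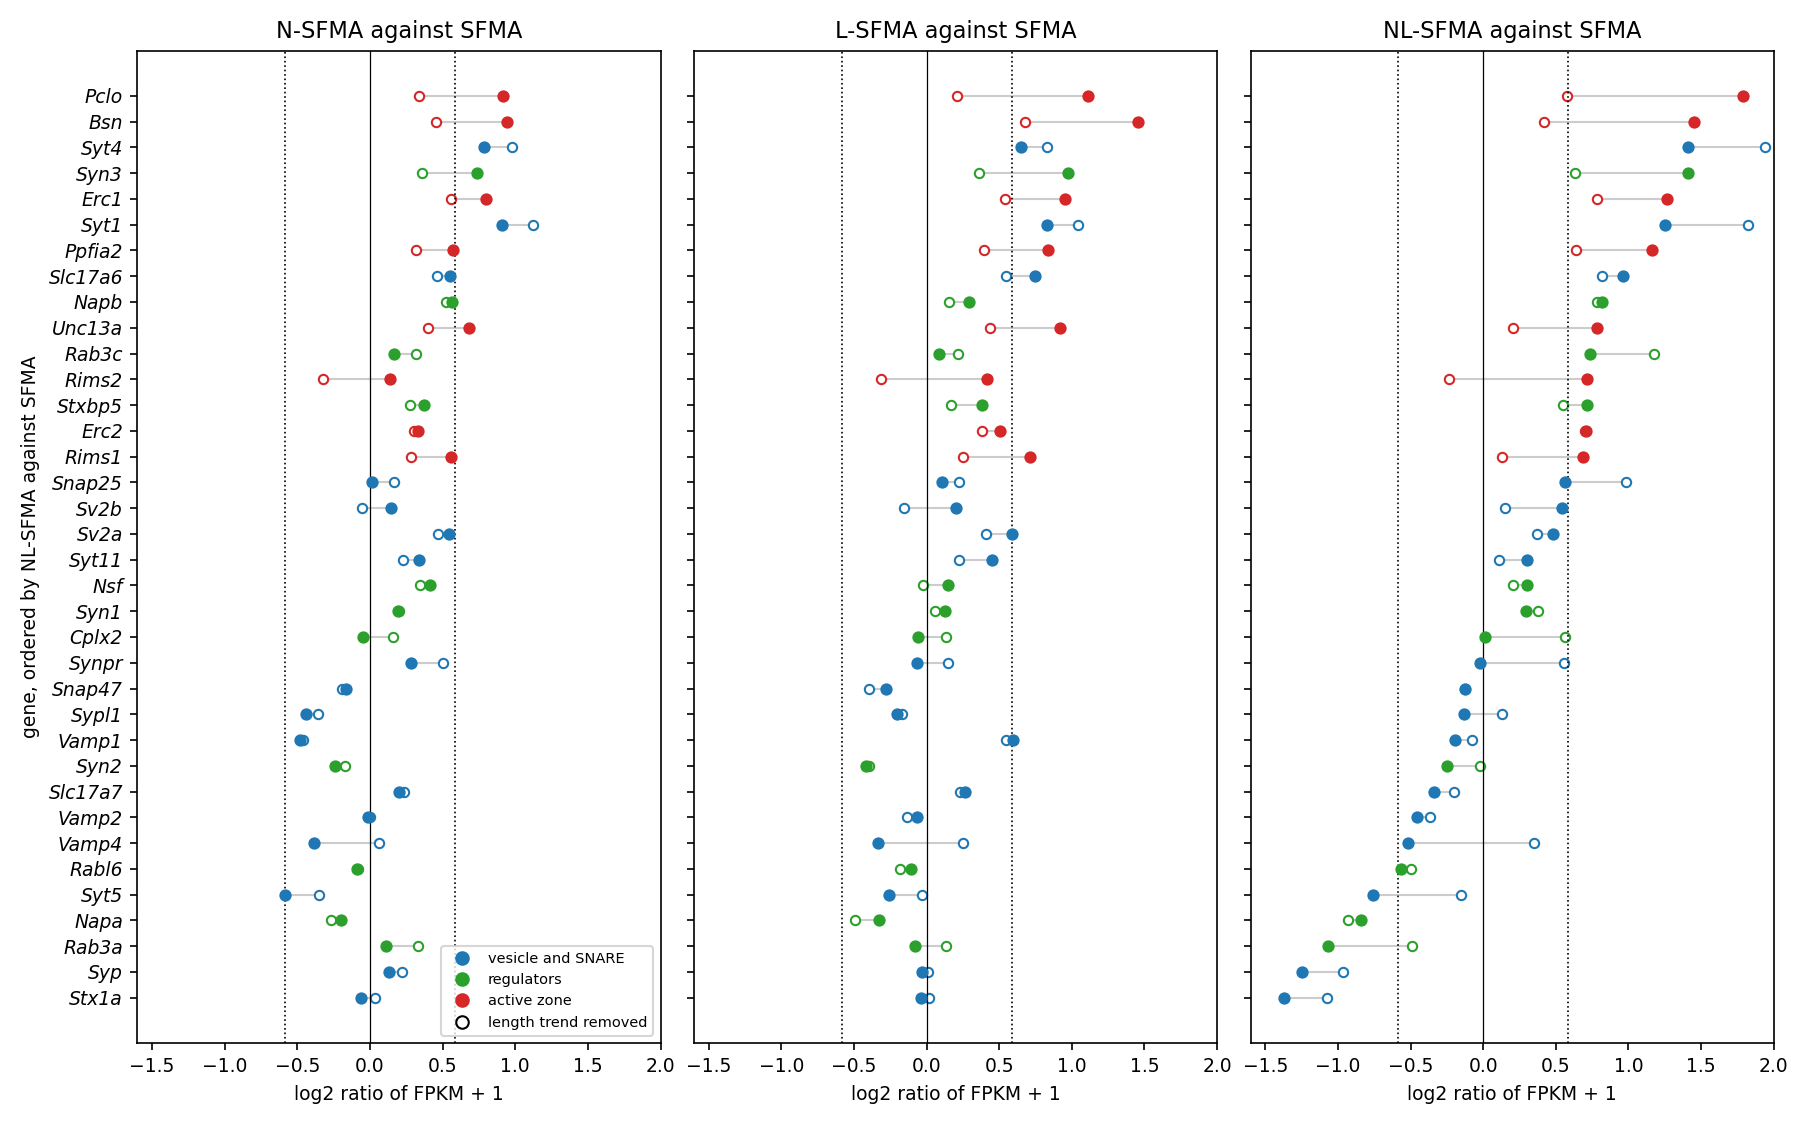
Log2 ratio of FPKM + 1 against SFMA for the 36 tested members on each of the other 3 hydrogels (filled points), and the same with the gene length trend of all tested genes removed (open points); dotted lines mark 1.5-fold. On NL-SFMA the filled points run from -1.37 for Stx1a to 1.79 for Pclo, and most active zone points move toward 0 when the trend is removed.

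A gene was called when its FPKM + 1 differed by at least 1.5-fold between both libraries of a comparison. On N-SFMA 7 of the 36 tested members were called higher than on SFMA (19.4%, against 7.24% of the 12394 genes tested) and 1, Syt5, lower (2.78%, against 10.7%). On L-SFMA 12 were higher (33.3%, against 14.8%) and 0 lower (against 11.1%). On NL-SFMA 15 were higher (41.7%, against 21.6%) and 5 lower (13.9%, against 29.3%), the latter being Stx1a, Syp, Rab3a, Napa and Syt5. Syt5 reached the minimum on SFMA and L-SFMA only, and Pclo, called higher in all 3 comparisons, did not reach it on SFMA. The calls of both are partly a product of that filter. The members' median log2 difference was 0.20, 0.23 and 0.39 on N-SFMA, L-SFMA and NL-SFMA, beside -0.02, 0.05 and -0.10 for all genes tested. These 3 comparisons share the SFMA library. The member list was chosen with earlier results of these data known, so the shares set side by side are a description and no test. At 2-fold, 0, 2 and 7 members were higher, against 0.855%, 3.32% and 10.1% of all genes, and 0, 0 and 3 were lower, against 2.65%, 3.04% and 15.1%. With the trend of gene length removed, 2, 3 and 10 members were higher, against 5.79%, 8.12% and 19.1% of all genes, and 0, 0 and 3 were lower, against 6.78%, 7.46% and 18.9%. On N-SFMA and L-SFMA the higher calls were then near the share of all genes.

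The set holds short vesicle and SNARE genes and long active zone genes, and these differed. Active zone genes had median log2 differences of 0.63, 0.88 and 0.97, with 4, 6 and 8 of 8 called higher (against 7.24%, 14.8% and 21.6% of all genes) and none lower in any of the 3. Pclo is among the higher calls in all 3. It did not reach the minimum on SFMA (0.214 FPKM), so its calls are partly a product of that filter. The 17 tested vesicle and SNARE genes had medians of 0.13, 0.10 and -0.12, with 2, 5 and 3 called higher and 1, 0 and 3 lower. Their higher calls were 11.8%, 29.4% and 17.6%, the last below the 21.6% of all genes, and their lower calls on NL-SFMA were 17.6%, against 29.3%. The 11 regulators had medians of 0.16, 0.09 and 0.29. The active zone median exceeded that of vesicle and SNARE genes by 0.50, 0.77 and 1.09. Median gene models were 6457 bases long in the active zone class and 2591 in the vesicle and SNARE class. With the length trend removed, the excess was 0.16, 0.17 and 0.36. Then 0, 1 and 3 of the 8 active zone genes were called higher, against 5.79%, 8.12% and 19.1% of all genes. The gene called on L-SFMA was Bsn (0.68), and those on NL-SFMA were Erc1 (0.78), Erc2 (0.70) and Ppfia2 (0.64). Class and length cannot be told apart for most of these genes, since 7 of the 8 active zone genes, but 1 of the 17 vesicle and SNARE genes (Sv2b), have models over 5000 bases.

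**Figure D3:**
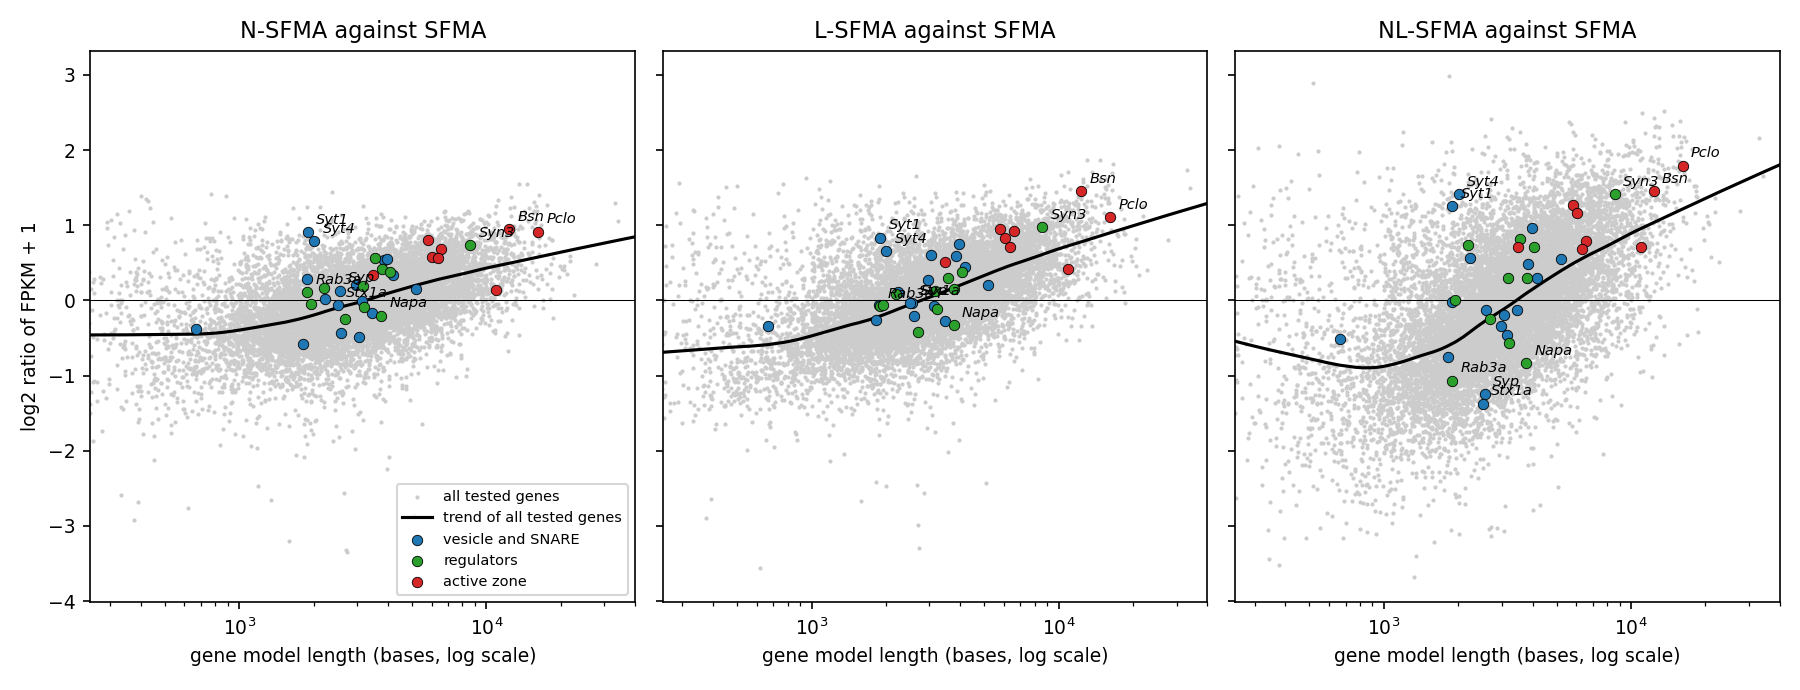
Log2 ratio of FPKM + 1 against SFMA by gene model length (log axis) for the 12394 tested genes (grey), with their smoothed trend (black) and the members coloured by class. The active zone genes other than Erc2 (3483 bases) lie at the long end where the trend is above 0. On NL-SFMA, Syt1 and Syt4 lie above the trend and Syp and Stx1a below it, at lengths of 1896 to 2558 bases.

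Across the 36 members, the log2 difference from SFMA correlated with log2 gene model length at r = 0.56, 0.69 and 0.58 on N-SFMA, L-SFMA and NL-SFMA, and at 0.46, 0.53 and 0.50 across the 12394 genes. Among the 28 members outside the active zone r was 0.36, 0.45 and 0.34. These are descriptions across genes, which share libraries and are not independent. Genes over 5000 bases had median differences of 0.31, 0.50 and 0.63 over all 2418 tested, while the 9 members of that length, 7 of them active zone genes, had 0.68, 0.92 and 1.16. Genes under 2500 bases had medians of -0.26, -0.26 and -0.63 over all 4936 tested, and 0.11, -0.06 and 0.01 over the 9 members of that length. With the trend removed, the log2 difference on NL-SFMA was 1.94 for Syt4, 1.82 for Syt1, 1.17 for Rab3c and 0.98 for Snap25, all with models under 2500 bases. It was -1.08 for Stx1a, -0.97 for Syp and -0.93 for Napa, whose models are 2509, 2558 and 3758 bases long. Rab3a, at -0.49, was no longer past 1.5-fold. Rims2, at 0.72 as measured, was at -0.24.

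The share of reads that related members take within a library does not depend on how libraries are scaled. Shares were computed for 17 pairs of members, and the 95% exact (Clopper-Pearson) interval on NL-SFMA lay apart from that on SFMA in 14 of them, as it did in 12 on N-SFMA and 12 on L-SFMA. Pairs of other genes were not counted, so these numbers do not show that the release genes differ from other genes. The pairs described were chosen after their values were seen. Rab3c took 4.73% (4.12 to 5.41) of the reads of Rab3a and Rab3c on SFMA, 4.98% (4.34 to 5.69) on N-SFMA, 5.34% (4.65 to 6.10) on L-SFMA and 15.8% (14.2 to 17.6) on NL-SFMA. For this pair, with gene models of 2194 and 1885 bases, NL-SFMA was high and the other 3 libraries overlapped. Napb took 9.96% (8.97 to 11.0), 16.7% (15.3 to 18.1), 15.0% (13.7 to 16.4) and 27.7% (25.7 to 29.8) of the reads of Napa and Napb, whose models differ by 200 bases. Slc17a6 took 15.0% (13.2 to 17.0), 19.8% (17.8 to 21.9), 21.7% (19.8 to 23.6) and 33.7% (31.0 to 36.5) of the reads of both glutamate transporters. In both pairs SFMA was lowest, NL-SFMA highest, and N-SFMA and L-SFMA overlapped in between. Syt4 took 39.7%, 47.3%, 43.1% and 58.8% of the reads of Syt4 and Syt11, and Pclo 14.3%, 28.9%, 25.1% and 39.9% of those of Pclo and Bsn. Among partners in the SNARE complex, Snap25 took 56.2% (54.3 to 58.1), 57.7% (55.6 to 59.7), 58.7% (56.8 to 60.6) and 84.0% (82.5 to 85.6) of the reads of Snap25 and Stx1a. Their models are 2233 and 2509 bases long, and the other 3 libraries overlapped here as well. The shares of Vamp1 in Vamp1 and Vamp2 (1.74%, 0.915%, 3.36% and 1.89%) of Rims2 in Rims1 and Rims2 (65.1%, 54.5%, 58.1% and 65.3%) and of Sv2b in Sv2a and Sv2b (17.2%, 13.8%, 13.9% and 18.8%) did not separate NL-SFMA from SFMA.

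**Figure D4:**
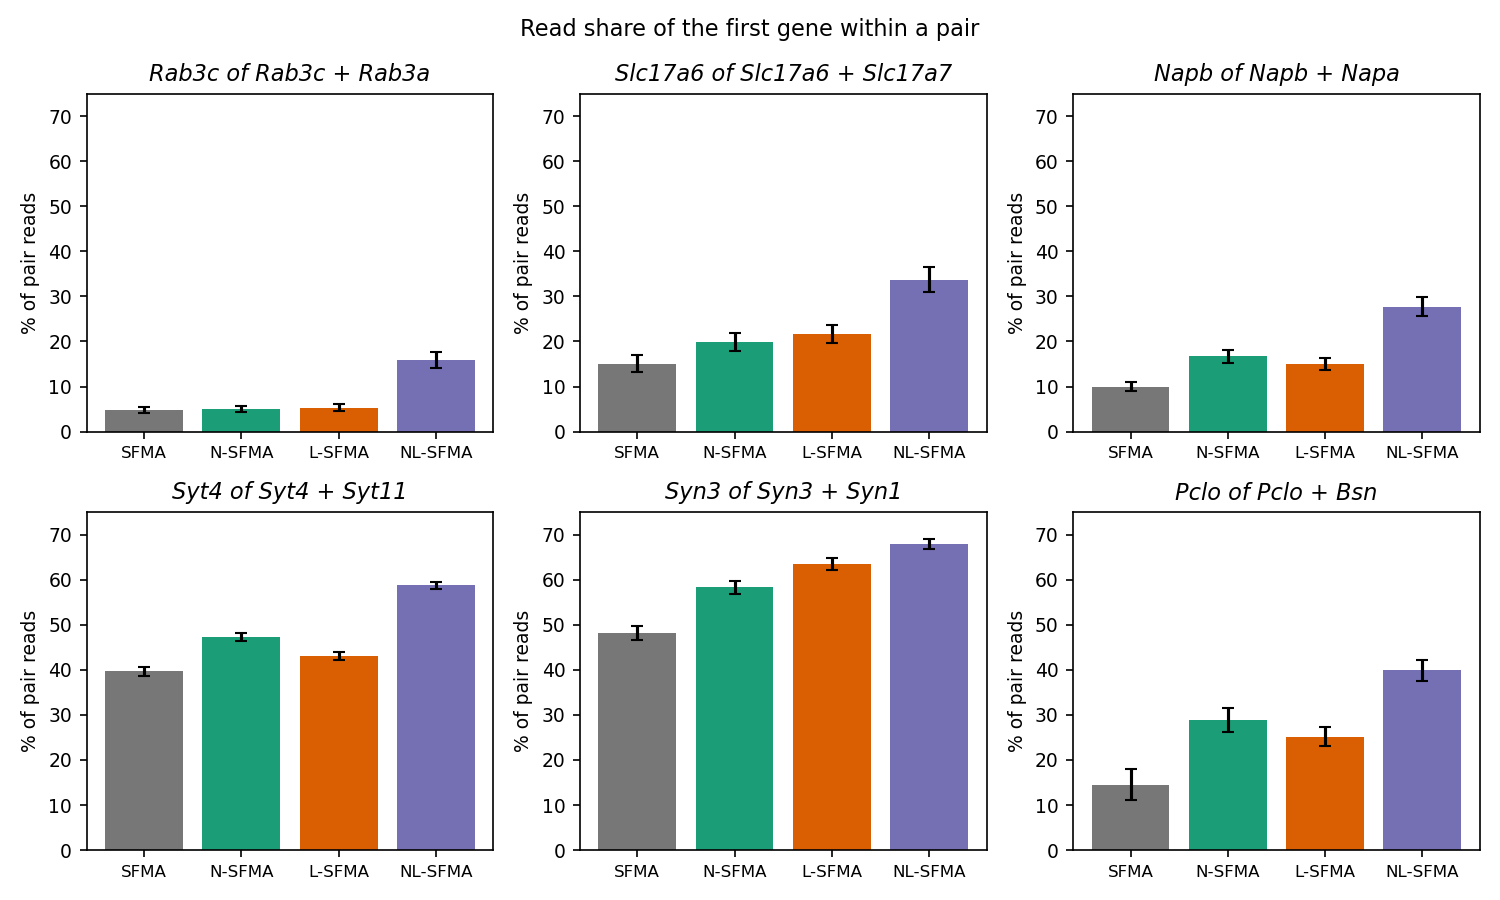
Reads of the first gene as a percentage of the reads of both genes of a pair in each library (bars from 0, 1 library each); error bars are 95% exact counting intervals and hold no biological spread. NL-SFMA is highest in all 6 pairs plotted, at 15.8% for Rab3c and 33.7% for Slc17a6. These were chosen from 17 pairs after their values were seen. Among pairs not plotted, the shares of Syn2 beside Syn1 and of Snap47 beside Snap25 were lower on NL-SFMA than on SFMA. The first gene has the longer model for Rab3c, Slc17a6, Syn3 and Pclo and the shorter one for Napb and Syt4.

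NL-SFMA was also set against each hydrogel with a single letter. Against N-SFMA 8 of 36 members were called (22.2%, against 30.5% of all genes tested). Higher were Pclo (0.88), Syn3 (0.68), Syt4 (0.63) and Ppfia2 (0.59), and lower were Syp (-1.38), Stx1a (-1.31), Rab3a (-1.18) and Napa (-0.64). Against L-SFMA 8 were called (22.2%, against 28.1%). Higher were Syt4 (0.76), Pclo (0.68) and Rab3c (0.65), and lower were Stx1a (-1.34), Syp (-1.21), Rab3a (-0.99), Vamp1 (-0.79) and Slc17a7 (-0.61). Both shares of members were below those of all genes. The 8 active zone genes had a median difference of 0.25 between NL-SFMA and L-SFMA, and Pclo was the only one of them past 1.5-fold.

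Other genes of the same processes were described from lists made by function. Of 76 further release genes listed, 62 were tested, and 4, 8 and 10 of them were called higher and 5, 4 and 11 lower in the 3 comparisons with SFMA, with medians of 0.12, 0.17 and 0.14. The higher calls were 6.45%, 12.9% and 16.1% of the list and the lower calls 8.06%, 6.45% and 17.7%, each below the share of all genes (7.24%, 14.8% and 21.6% higher, 10.7%, 11.1% and 29.3% lower). The largest on NL-SFMA were Stxbp5l, a relative of tomosyn (1.26, 2.17, 2.72 and 5.98 FPKM), the vesicle priming gene Cadps (17.7, 30.1, 30.9 and 39.9 FPKM), Lin7c (33.4, 40.9, 40.2 and 72.1 FPKM), Rab3gap2 (6.74, 9.49, 11.0 and 13.6 FPKM) and the scaffold gene Cask (21.9, 22.5, 26.0 and 39.0 FPKM). The lowest were Sncb, which encodes beta-synuclein (24.7, 21.1, 23.1 and 5.40 FPKM), Rabac1 (230.4, 191.8, 175.9 and 74.4 FPKM), Stx4 (13.1, 6.54, 8.68 and 4.37 FPKM), the vesicle gene Syngr3 (15.1, 11.6, 14.3 and 8.04 FPKM) and Sec22b (39.4, 35.8, 33.7 and 23.9 FPKM). Sncb, Rabac1 and Cltb below had, like Syp and Stx1a, 3 libraries nearer to one another than to a low NL-SFMA library.

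Genes of vesicle endocytosis, which recovers vesicle membrane after release, were described in the same way. Of 34 tested, 5, 6 and 15 were called higher and 0, 1 and 8 lower, with medians of 0.15, 0.19 and 0.18. The higher calls were 14.7%, 17.6% and 44.1% of the list, against 7.24%, 14.8% and 21.6% of all genes. The lower calls were 0%, 2.94% and 23.5%, against 10.7%, 11.1% and 29.3%. With the length trend removed, 10 were higher and 5 lower on NL-SFMA, against 19.1% and 18.9% of all genes. The list's median on NL-SFMA was then -0.11. Within the clathrin coat the heavy chain gene Cltc was at 38.5, 70.6, 65.5 and 117 FPKM, and the light chain genes Clta at 231, 213, 189 and 109 FPKM and Cltb at 125, 101, 99.8 and 29.2 FPKM. The adaptor genes also differed in direction, with Ap2b1 at 70.7, 120, 98.7 and 160 FPKM and Ap2s1 at 196, 134, 124 and 58.4 FPKM. The higher genes have long models (8684 bases for Cltc and 5659 for Ap2b1) and the lower ones short models (1157 for Clta, 1072 for Cltb and 1062 for Ap2s1). With the length trend removed, the NL-SFMA differences were 0.80 for Cltc, 0.70 for Ap2b1, -0.25 for Clta, -1.21 for Cltb and -0.87 for Ap2s1. Synj1 (6.23, 11.6, 13.2 and 18.3 FPKM), Dnajc6 (8.51, 19.1, 18.9 and 22.9 FPKM), which serve clathrin uncoating, and Eps15 (8.92, 12.7, 11.1 and 21.5 FPKM) complete the 5 largest upward. Sh3gl1 (22.4, 16.7, 18.1 and 6.89 FPKM) and Fcho1 (15.2, 13.5, 18.7 and 7.80 FPKM) complete the 5 largest downward, and Sh3gl1 has a long model (7204 bases) and was at -2.22 with the trend removed.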

How the data were processed

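Poly(A) RNA of 4 cultures, 1 per hydrogel, was sequenced on an Illumina NovaSeq instrument, per the series' design text, from NEBNext Ultra RNA kit libraries, per the labels. The deposited files give raw read counts per gene; the submitters' processing notes name HISAT2 and HTSeq 0.13.5, with no settings. They also give the authors' FPKM, which equals the count over gene model length and summed count: lengths recovered from both columns agreed between libraries to within 1e-06 bases. Not given in the sources used here are whether the 5 wells were pooled, the role of the builds named (mRatBN7.2 and GRCh38), the strand setting and any filter. Without strand, reads of overlapping antisense genes cannot be told apart.

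Genes with at least 1 FPKM in any library were compared (12394) as log2 ratios of FPKM + 1, a scale that understates the change of low genes, and called at 1.5-fold. Ratios of single genes are CPM ratios without a pseudocount, with exact (Clopper-Pearson) 95% intervals conditional on both counts. Intervals and the floor of 3 counts cover counting error only: without molecular identifiers, PCR copies of 1 molecule are counted as several reads. The length trend was a lowess curve (statsmodels 0.14.6, fraction 0.3, 3 iterations) over all tested genes. TMM factors came from edgeR 4.0.16 and median-of-ratios size factors from DESeq2 1.42.0. They served as alternative scalings, and no test was run. The code for the fold rule and trend removal was checked on simulated counts with counting error only. That check holds no biological spread and does not bear on the calls. Other alternatives were the pseudocount, the minimum, TPM, leaving out mitochondrially encoded genes, a 2-fold rule and the member list.

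The members and lists were chosen with earlier results of these data known. All members are named. Ratios with intervals are printed, per role, for the members with the largest and smallest NL-SFMA difference and at least 5 FPKM in the higher library, and for other lists up to 5 genes each way by the same minimum are named. Promoters come from RefSeq, matched by symbol.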

Additional observations from a re-analysis of the deposited data

Results flagged for a closer look

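If the letters N and L in the names each mean the same modification throughout, the difference that goes with N can be read without L (N-SFMA against SFMA) and with L (NL-SFMA against L-SFMA). In 5 of the 36 tested members these differences had opposite signs with counting intervals that both excluded a ratio of 1, and differed by at least 1.5-fold, with libraries scaled by summed counts. The share of all tested genes that meet this rule is not given, so the count does not set the members apart from other genes. Each side rests on 1 library per hydrogel, so the difference was not tested. Syp was 0.13 higher with N alone and -1.21 with N on top of L, an excess of -1.34 on the log2 scale. Rab3a was at 0.11 and -0.99, an excess of -1.10. Unc13a was at 0.68 and -0.13, an excess of -0.82, but the second value was 0.02 under median-of-ratios scaling, which ends the opposite signs. Slc17a7 was at 0.20 and -0.61, an excess of -0.81, and was opposite for L as well (0.27 without N and -0.54 with it). Sv2a was at 0.54 and -0.10, an excess of -0.65, but the second value was 0.02 under TMM and 0.06 under median-of-ratios scaling, so its signs are opposite only under some scalings. Stx1a had a like excess of -1.27 but did not meet the rule, because both of its differences were below 0 (-0.06 and -1.34). The counting interval of the first also held a ratio of 1. The signs for Syp, Rab3a and Slc17a7 stayed opposite under TMM, median-of-ratios, TPM and the summed count without mitochondrially encoded genes, scalings tried here after seeing the data.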

How the results depend on the processing

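No paired analysis was possible because each hydrogel has 1 library, and for the same reason no replicate could be left out. Of the 36 tested members, 7, 12 and 15 were called higher on N-SFMA, on L-SFMA and NL-SFMA in turn (against 7.24%, 14.8% and 21.6% of all genes). With the length trend removed they were 2, 3 and 10 (against 5.79%, 8.12% and 19.1%), near the share of all genes on N-SFMA and L-SFMA. At 2-fold they were 0, 2 and 7 (against 0.855%, 3.32% and 10.1%), and with a pseudocount of 5 FPKM 3, 6 and 7. On N-SFMA they were 14 with TPM and 11 with a pseudocount of 0.1. Counts called lower on NL-SFMA (5, against 29.3% of all genes) were 3 at 2-fold (against 15.1%) and 3 with the length trend removed (against 18.9%). For the other pseudocounts, scalings and minimum no share of all genes is given. The 1 lower call on N-SFMA was 2 with a pseudocount of 0.1 and 0 with TMM, median-of-ratios scaling, a pseudocount of 5, a minimum of 5 FPKM, the length trend removed or the 2-fold rule. The excess of the active zone median in the same order (0.50, 0.77 and 1.09) was 0.16, 0.17 and 0.36 with the length trend removed and 0.23, 0.35 and 0.68 with a pseudocount of 5. It was 1.29 on NL-SFMA with a pseudocount of 0.1. Without 6 broadly expressed members it was 0.60 on L-SFMA and 0.64 on NL-SFMA. Against vesicle and SNARE genes over 3000 bases alone, an alternative chosen after seeing the data, it was 0.43 on L-SFMA and 0.67 on NL-SFMA. With the length trend removed, the values on N-SFMA and L-SFMA were no larger than, or about equal to, the median counting half-width of a single member (0.18 and 0.17). That half-width belongs to the ratio of a single gene. It does not measure the error of a difference between class medians and holds no spread between libraries. The summed FPKM of vesicle and SNARE genes was 135.4 higher on NL-SFMA than on SFMA, and -53.5 without Syt4, an alternative also added after seeing the data. Of the called members, Rims2 on NL-SFMA changed sign with the length trend removed (-0.24). TPM moved the median of all genes by over 0.1, to 0.13, 0.28 and 0.14, where FPKM gave -0.02, 0.05 and -0.10. Under TPM or another scaling, small differences changed sign for Snap47, Vamp2, Stx1a, Rabl6 and Cplx2 on N-SFMA, for Syp, Sypl1, Synpr, Vamp2, Stx1a, Rab3a, Rabl6 and Cplx2 on L-SFMA and for Sypl1, Synpr and Snap47 on NL-SFMA; none of these was called. With 11 to 77 reads in some libraries, depth limits Syt5, Synpr, Vamp1 and Pclo. Causes were not tested beyond the length trend.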
